A study of Homo sapiens with 17 samples.

Results

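The lysosome and V-ATPase genes described here are 43 genes taken by symbol for what their proteins do. The choice by symbol used no measured value, but the minimum mean below did, and the set was drawn up with earlier results of these data known. They comprise the transcription factors *TFEB*, *TFE3* and *MITF*, 7 lysosomal membrane proteins, 7 proteases, 7 glycosidases, 5 genes of lipid handling and 14 V-ATPase genes (5 of the V0 sector, 7 of the V1 sector and 2 accessory subunits). All 43 were in a table of 60664 genes, and 41 averaged 10 or more normalized counts across the libraries and were tested among 15599 genes. *CLN3* and *ATP6V0C* fell under that minimum. RNA-Seq, which counts the sequenced RNA fragments of each gene, was measured in SF8628, an established cell line from 1 H3.3K27M diffuse midline glioma (DMG), so that all groups share the mutant histone and the same culture medium. The cells received the vehicle DMSO for 24 hours, 1 µM AZD5153 for 24 hours, DMSO for 48 hours or 1 µM AZD5153 for 48 hours, with 3 libraries in each of these 4 groups. AZD5153 is a small molecule that binds the bromodomains of BET proteins, readers of acetylated histones. A normalized count is the number of reads on a gene divided by the size factor of the library, and fold changes are on the scale of log2(normalized count + 1), which understates the changes of low genes.

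Lysosomes break down proteins, glycans, lipids and worn-out organelles with acid hydrolases. The V-ATPase keeps their lumen acid: its V1 sector splits ATP in the cytosol and turns a rotor, and the V0 sector in the membrane passes protons. TFEB, TFE3 and MITF bind the E-box CACGTG in promoters of many lysosomal genes, and kinase signalling at the lysosome surface holds them in the cytosol, so that their RNA level does not give their activity.

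The libraries held 15759148 to 27335220 reads on genes (median 20737337). Of 10 markers of glial cells and midline glioma, 6 had a mean of at least 10, namely *VIM*, *CD44*, *NES*, *SOX9*, *SOX2* and *GFAP*. The lineage markers *PDGFRA* (mean of 2.66), *NCAM1* (2.31) and *POU3F2* (2.19) were under it, and *OLIG2* was listed at 0 in every library. Replicate 1 of the DMSO group at 24 hours stood apart from replicates 2 and 3 of its group, by a chi-square over its degrees of freedom of 15.2 and 22.9, where the other pairs of replicates gave 2.09 to 4.82. Values without this library are given beside the results that rest on it. The labels do not say whether replicates came from separate cultures, so the p-values measure the spread between these libraries, which may be technical.

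Most lysosome and V-ATPase genes were higher in AZD5153-treated DMG cells than in DMSO at the same time. At 24 hours 26 of 41 members rose and 6 fell, by limma with Benjamini-Hochberg adjustment over all genes tested. Of all genes tested, 33.9% rose and 34.6% fell at that time. At 48 hours 25 members rose and 9 fell, beside 33.1% and 33.9% of all genes. The median log2 fold change of the members was 0.42 at 24 hours and 0.38 at 48 hours, and that of all genes tested was 0.0004 and 0.0011. Another scaling of the libraries changed the 48-hour median most, to 0.16 under quantile normalization and to 0.21 when all libraries were given equal totals. The median of all genes was then 0.087 and -0.17, so that the members' median lay 0.076 and 0.38 above it. Under equal totals 25 members rose at 24 hours and 21 at 48 hours, and the higher share of all calls was 40.7% in place of 49.5% at 24 hours and 37.3% in place of 49.4% at 48 hours. Proteases, glycosidases and lipid genes held members that rose and members that fell.

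**Figure D1:**
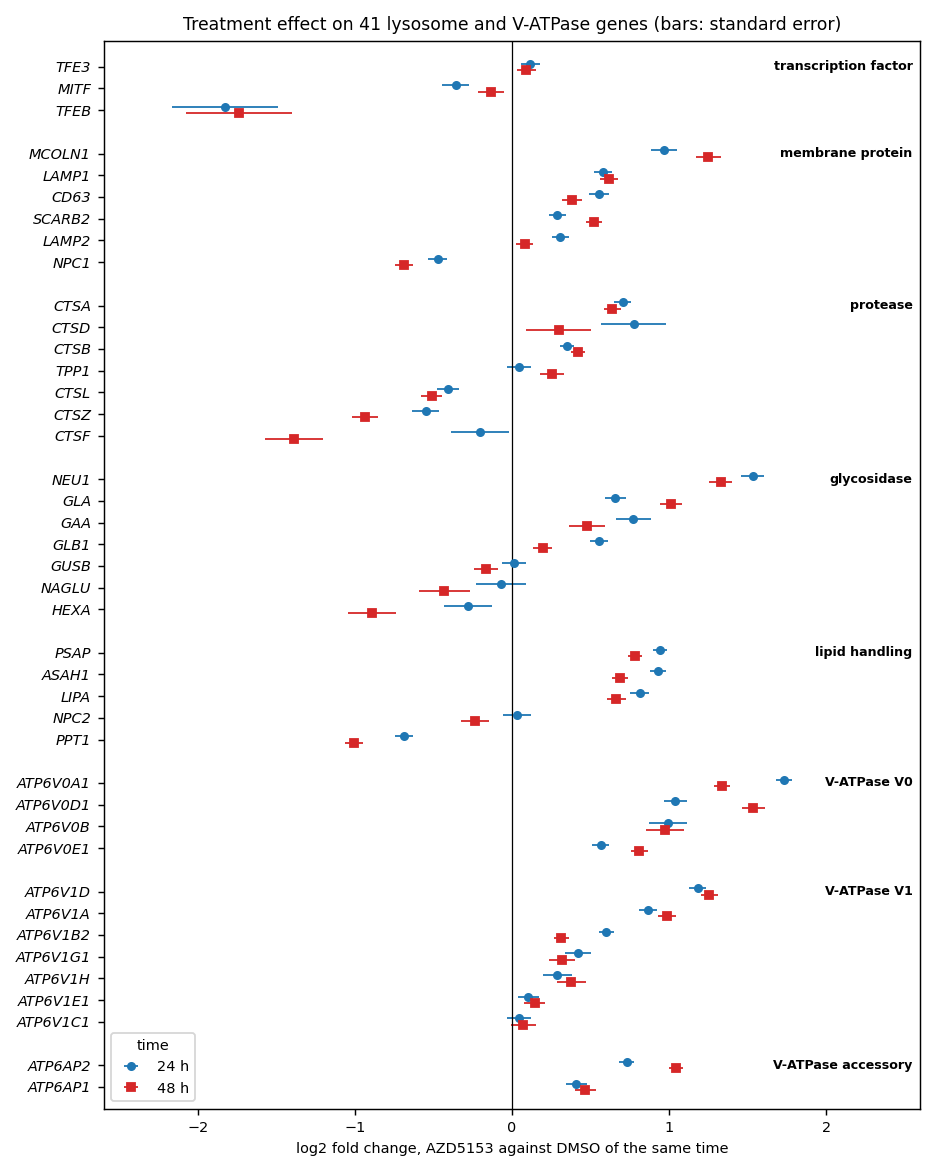
Treatment effect on each of the 41 tested lysosome and V-ATPase genes, as the log2 fold change of AZD5153 against DMSO of the same time (x axis) at 24 hours (circles) and 48 hours (squares), with bars for the standard error. The V-ATPase genes lie right of 0 (under equal totals *ATP6V1C1* and *ATP6V1E1* turned slightly negative), up to 1.73 for *ATP6V0A1* at 24 hours, and *TFEB* lies farthest left, at -1.83 and -1.74.

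Over both times, 24 members rose at each time, beside 26% of all genes, and 5 fell at each time, beside 27.1%. The 5 were *TFEB*, *NPC1*, *CTSL*, *CTSZ* and *PPT1*. No member changed in opposite directions at the 2 times (0 of 41, beside 1.62% of all genes). *TFE3*, *GUSB*, *ATP6V1C1* and *ATP6V1E1* passed at neither time. A change of at least 1 on the log2 scale was reached by 4 risers at 24 hours (3 without replicate 1 of DMSO) and 7 at 48 hours, beside 10.8% and 8.84% of all genes. In the other direction it was reached by *TFEB* at 24 hours and by *TFEB*, *CTSF* and *PPT1* at 48 hours, beside 15.7% and 16.5% of all genes. In 26 members every AZD5153 library lay above every DMSO library at 24 hours (34% of all genes) and in 6 every one lay below (34.8%). At 48 hours these counts were 28 (37.5%) and 11 (37.2%).

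Of the 3 transcription factors 0 passed the threshold as higher, 2 fell at 24 hours and 1 fell at 48 hours, beside falls in 34.6% and 33.9% of all genes, and 1 of 3 is near that share. *TFEB* (chr6:41683978-41736259, GRCh38), best known as the master regulator of lysosome biogenesis, read 37.2, 65.5 and 80.2 normalized counts in DMSO at 24 hours, against 12.1, 18.4 and 17.1 with AZD5153. The 48-hour vehicle libraries gave 130, 113 and 104 and the treated ones 19.1, 45.6 and 43.6. The treated libraries lay below the vehicle libraries at both times, without overlap. The log2 fold change was -1.83 ± 0.34 (SE, limma adjusted p = 0.00017) at 24 hours and -1.74 ± 0.34 (limma adjusted p = 0.00027) at 48 hours, and -2.14 at 24 hours without replicate 1 of DMSO. These values rest on 9 to 144 reads per library.

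*TFE3* (chrX:49028726-49043410), a close relative that drives the same kind of targets, read 2509, 2415 and 2721 in DMSO at 24 hours and 2964, 2710 and 2613 in AZD5153. Values at 48 hours were 2555, 2657 and 2810 in DMSO, against 2863, 2914 and 2766 with AZD5153. The groups overlapped at both times, and the log2 fold changes of 0.12 ± 0.06 (SE, limma adjusted p = 0.1) and 0.09 ± 0.06 (limma adjusted p = 0.2) did not pass and were -0.0068 and -0.080 under equal totals. *MITF* (chr3:69739456-69968336), known for its role in pigment cells, read 462, 421 and 430 in DMSO at 24 hours and 310, 360 and 354 in AZD5153. It fell at 24 hours, with a log2 fold change of -0.36 ± 0.08 (SE, limma adjusted p = 0.0014), while its value at 48 hours was -0.13 ± 0.08 (limma adjusted p = 0.18). The 48-hour libraries read 404, 411 and 408 in DMSO and 360, 379 and 376 with AZD5153, so that the treated ones lay below without overlap although the test did not pass. Per kilobase of exon, the level in DMSO at 24 hours was 606 for *TFE3*, 59.0 for *MITF* and 9.07 for *TFEB*, which puts *TFE3* first among these factors. *TFEB* was the lowest of the 41 tested members on that scale.

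**Figure D2:**
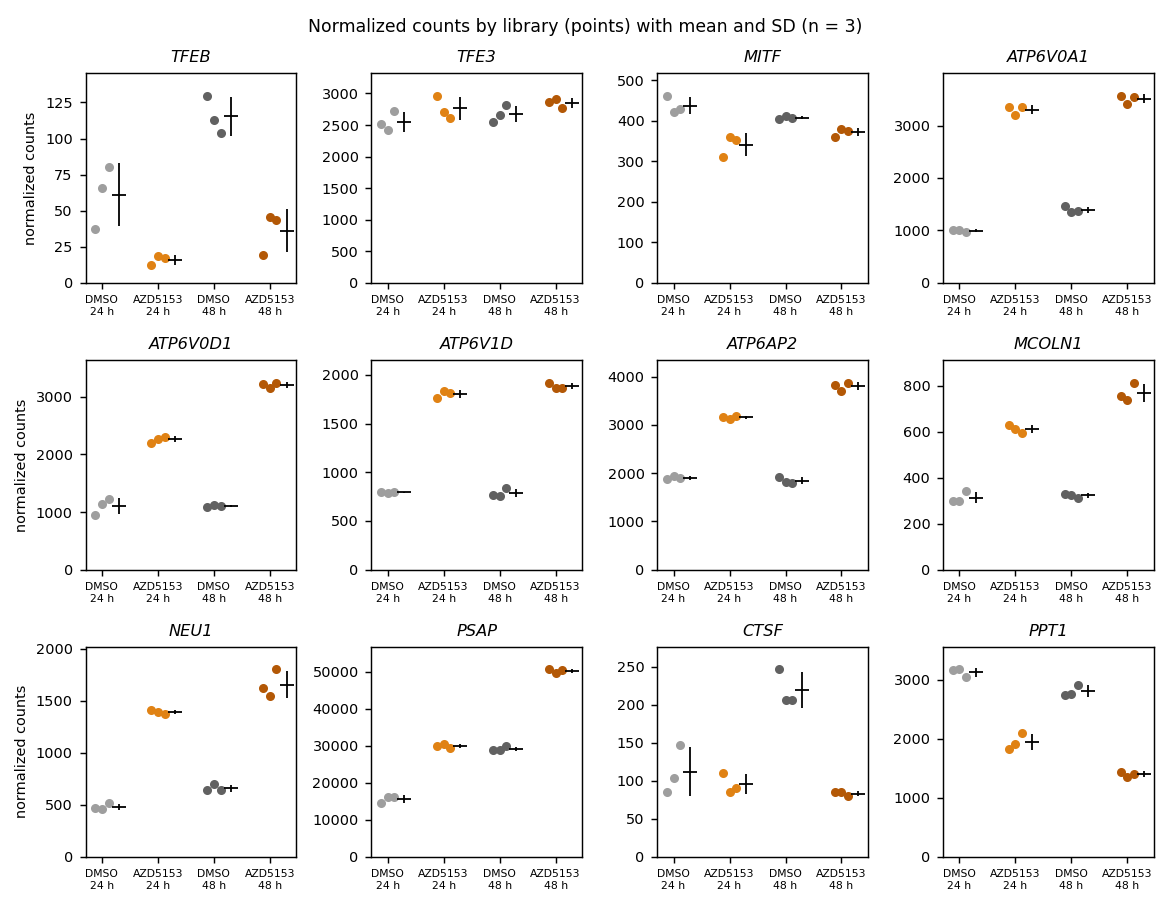
Normalized counts (y axis, from 0) of 12 members in each of the 12 libraries, by group, with points for libraries and a bar for the mean and SD (n = 3). Treated libraries lie above vehicle libraries of the same time for the 4 V-ATPase genes, *MCOLN1*, *NEU1* and *PSAP*. They lie below those of the same time for *TFEB* and *PPT1*, and those of *TFE3* overlap.

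The promoters of the members were read for the E-box that these factors bind. A window from 250 bases before to 50 after a single start of each gene was taken from RefSeq (GRCh38.p14), which matched 32 of the 43 members. Other starts of the same gene were not read, so a window without the letters does not speak for them. The letters CACGTG, which read the same on both strands, stood in 11 of the 32 (34.4%), beside 7.26% of 35116 promoters of that length. The longer palindrome with GT before and AC after these 6 letters, the form known from lysosomal promoters, stood in 3 of 32 (9.38%), beside 0.353% of all promoters. The shares of all promoters were not limited to genes expressed in these cells, so they are no matched background for the members. Stretches of 8 of the members' promoters show how close to the start the letters sit. Each line gives the 150 bases before the start, 5′ to 3′ on the gene's strand, with CACGTG, or the longer palindrome where it stands, in capitals.
MCOLN1: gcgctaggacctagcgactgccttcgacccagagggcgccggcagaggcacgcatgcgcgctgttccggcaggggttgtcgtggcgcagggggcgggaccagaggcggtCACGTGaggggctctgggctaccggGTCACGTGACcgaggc
GAA: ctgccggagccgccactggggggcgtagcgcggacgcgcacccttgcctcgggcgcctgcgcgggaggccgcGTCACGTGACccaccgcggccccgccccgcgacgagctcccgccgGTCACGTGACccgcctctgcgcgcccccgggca
ATP6V1G1: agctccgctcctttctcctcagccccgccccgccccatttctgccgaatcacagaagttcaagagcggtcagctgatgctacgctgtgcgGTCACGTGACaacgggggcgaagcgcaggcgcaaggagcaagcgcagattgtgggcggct
NEU1: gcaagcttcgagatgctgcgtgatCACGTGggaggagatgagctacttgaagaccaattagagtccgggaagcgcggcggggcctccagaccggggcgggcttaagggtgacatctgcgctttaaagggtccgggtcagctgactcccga
ATP6V0D1: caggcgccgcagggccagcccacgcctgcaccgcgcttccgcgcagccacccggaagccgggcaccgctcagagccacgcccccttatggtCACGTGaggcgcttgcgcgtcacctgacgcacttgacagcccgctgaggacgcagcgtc
ATP6V0B: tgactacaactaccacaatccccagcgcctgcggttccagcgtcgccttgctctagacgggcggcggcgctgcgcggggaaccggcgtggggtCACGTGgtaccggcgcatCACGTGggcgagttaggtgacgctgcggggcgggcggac
LAMP1: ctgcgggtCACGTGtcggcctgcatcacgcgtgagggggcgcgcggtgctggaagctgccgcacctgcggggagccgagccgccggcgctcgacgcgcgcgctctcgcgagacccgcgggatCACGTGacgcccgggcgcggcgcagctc
CTSF: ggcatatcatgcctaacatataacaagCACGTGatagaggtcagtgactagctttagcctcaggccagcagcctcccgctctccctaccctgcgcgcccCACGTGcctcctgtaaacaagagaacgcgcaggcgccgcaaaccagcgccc

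These stretches lie on GRCh38.p14 at chr19:7522474-7522623 (plus strand) for *MCOLN1*, chr17:80101431-80101580 (plus) for *GAA*, chr9:114587619-114587768 (plus) for *ATP6V1G1* and chr6:31862822-31862971 (minus) for *NEU1*. Those of the other genes are chr16:67481158-67481307 (minus) for *ATP6V0D1*, chr1:43974810-43974959 (plus) for *ATP6V0B*, chr13:113297089-113297238 (plus) for *LAMP1* and chr11:66568607-66568756 (minus) for *CTSF*. *GAA* held the longer palindrome at 2 places and *LAMP1* held CACGTG at 6 places of its 300-base window, 5 of them before the start. Of the 10 tested members with CACGTG in the window, 9 rose and 0 fell at 24 hours, and 8 rose and 1 fell at 48 hours, the faller being *CTSF*. Of 20 tested members whose window lacks it, 9 rose and 6 fell at 24 hours and 10 rose and 6 fell at 48 hours. Members without a matched promoter are in neither count. *CLN3* also holds the letters but fell under the minimum mean. With no minimum mean its log2 fold change was -2.06 (limma adjusted p = 0.064) at 24 hours and -2.23 (limma adjusted p = 0.044) at 48 hours. Of all genes tested 33.9% rose and 34.6% fell at 24 hours and 33.1% and 33.9% at 48 hours, so the falls among members without the letters are near the share of all genes. The median log2 fold change at 24 hours was 0.77 with CACGTG and 0.11 without, and 0.63 and 0.17 at 48 hours. Equal totals moved the median of all genes to -0.12 and -0.17, a shift about as large as the medians without the letters. These are descriptions of letters and no test was made between them, and the windows of *TFEB*, *TFE3* and *MITF* did not hold the letters.

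Of the 13 tested V-ATPase genes, 11 rose at each time and 0 fell, beside the shares of all genes given above, and the median log2 fold change was 0.60 at 24 hours and 0.81 at 48 hours. At 24 hours these genes took 0.105% ± 0.0015 of all normalized counts with vehicle and 0.157% ± 0.0026 with AZD5153 (SD, n = 3), and 0.112% ± 0.0018 and 0.171% ± 0.0027 at 48 hours. The median was 1.01 and 1.15 over 4 genes of the V0 sector, against 0.42 and 0.32 over 7 genes of V1 and 0.57 and 0.76 over the 2 accessory subunits. These medians are a description without a test between sectors.

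In V0, *ATP6V0A1* (chr17:42458844-42522582) encodes an isoform of the large a subunit, which lines the proton path. It read 1005, 1014 and 964 normalized counts in DMSO at 24 hours, against 3352, 3199 and 3356 with AZD5153. After 48 hours the vehicle libraries read 1456, 1352 and 1365 and the treated ones 3569, 3407 and 3553. The treated libraries were close to one another and far above the vehicle at both times, at 3.32-fold (log2 1.73 ± 0.05, SE, limma adjusted p = 1.8e-13) and 2.52-fold (log2 1.33 ± 0.05, limma adjusted p = 3.3e-12).

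*ATP6V0D1* (chr16:67438014-67481181) encodes the d subunit, which joins the rotor of V0 to V1. It read 955, 1132 and 1234 in DMSO at 24 hours and 2203, 2273 and 2311 in AZD5153, against 1084, 1124 and 1107 in DMSO and 3227, 3153 and 3248 with AZD5153 at 48 hours. The vehicle groups overlapped each other while the treated libraries at 48 hours lay above those at 24 hours. Its log2 fold change was 1.04 ± 0.07 (SE, limma adjusted p = 3.9e-09) at 24 hours and 1.54 ± 0.07 (limma adjusted p = 3.8e-11) at 48 hours. Without replicate 1 of DMSO the 24-hour value was 0.94 (limma adjusted p = 2.6e-14). *ATP6V0B* (chr1:43974487-43978295), a ring subunit that carries protons, rose by 0.99 and 0.97 on the log2 scale, and by 0.81 at 24 hours without replicate 1 of DMSO. *ATP6V0E1* (chr5:172983771-173035445), a small subunit of V0, had the smallest mean effect of the sector. It read 1749, 1692 and 1649 in DMSO and 2470, 2595 and 2468 with AZD5153 at 24 hours, 1.48-fold, and 1600, 1504 and 1521 against 2786, 2552 and 2771 at 48 hours, 1.75-fold. Its groups did not overlap at either time (limma adjusted p = 1.4e-07 and 1.9e-09).

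In V1, *ATP6V1D* (chr14:67294371-67360265), part of the central stalk, read 800, 787 and 796 in DMSO and 1760, 1836 and 1813 with AZD5153 at 24 hours. Its 48-hour values were 772, 761 and 836 in DMSO, against 1922, 1867 and 1868 with AZD5153. It more than doubled without overlap, at 2.27-fold (log2 1.18 ± 0.06, SE, limma adjusted p = 3.4e-11) and 2.39-fold (log2 1.26 ± 0.06, limma adjusted p = 1.7e-11). *ATP6V1A*, the catalytic subunit that splits ATP, rose by 0.87 and 0.99 on the log2 scale, and *ATP6V1B2*, its partner in the ATP-binding head, by 0.60 and 0.31. *ATP6V1G1*, of the peripheral stalk, rose by 0.42 and 0.32 and *ATP6V1H*, which couples V1 to V0, by 0.29 and 0.38. Under equal totals *ATP6V1H* passed at neither time (limma adjusted p = 0.12 and 0.056) and *ATP6V1G1* not at 48 hours (limma adjusted p = 0.12).

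*ATP6V1C1* (chr8:103021063-103073051), a subunit that links stalk and head, had the smallest mean effect among V1 genes. It read 1300, 1170 and 1040 in DMSO and 1134, 1200 and 1277 with AZD5153 at 24 hours, and 1096, 1059 and 1143 against 1110, 1147 and 1211 at 48 hours. The groups overlapped at both times, and the log2 fold changes were 0.05 ± 0.08 (SE, limma adjusted p = 0.62) and 0.07 ± 0.08 (limma adjusted p = 0.43). *ATP6V1E1*, of the peripheral stalk, gave 0.10 (limma adjusted p = 0.18) and 0.14 (limma adjusted p = 0.071). Once replicate 1 of the 24-hour vehicle was left out, *ATP6V1E1* passed at both times, with 0.16 (limma adjusted p = 0.021) and 0.14 (limma adjusted p = 0.019).

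Both accessory subunits rose. *ATP6AP2* (chrX:40579372-40606848), the prorenin receptor, which takes part in assembly of the pump, read 1870, 1940 and 1898 in DMSO and 3159, 3128 and 3191 with AZD5153 at 24 hours. The vehicle libraries of 48 hours read 1927, 1810 and 1804 and the treated ones 3838, 3710 and 3879. The groups were far apart at both times, at 1.66-fold (limma adjusted p = 1.2e-09) and 2.06-fold (limma adjusted p = 1.9e-11). *ATP6AP1* (chrX:154428633-154436516), which also serves assembly, read 1466, 1695 and 1773 in DMSO and 2216, 2197 and 2125 with AZD5153 at 24 hours, 1.33-fold (limma adjusted p = 4.7e-05). It read 1761, 1777 and 1816 against 2476, 2338 and 2588 at 48 hours, 1.38-fold (limma adjusted p = 1.2e-05), and the groups did not overlap. *ATP6V0C*, the main ring subunit, had 1 to 12 reads per library and a group mean of 4.65, 7.54, 4.84 and 4.47 in the order of the groups given above. In GENCODE 44, 76.3% of its exon bases are shared with genes annotated on the same strand (60.9% with ENSG00000260272 and 15.4% with ENSG00000259784, both listed at 0). It was not among the tested genes, and with no minimum mean its limma adjusted p was 0.36 at 24 hours and 1.0 at 48 hours.

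Of the 6 tested membrane proteins, 5 rose and 1 fell at 24 hours, and 4 rose and 1 fell at 48 hours, beside rises in 33.9% and 33.1% and falls in 34.6% and 33.9% of all genes. *MCOLN1* (chr19:7522624-7534009) encodes the calcium channel TRPML1 of the lysosome and holds the longer palindrome in the stretch printed above. It read 299, 299 and 341 normalized counts in DMSO and 630, 611 and 595 with AZD5153 at 24 hours, and 331, 326 and 312 against 754, 740 and 815 at 48 hours. Treated libraries lay well above the vehicle at both times, at 1.96-fold (log2 0.97 ± 0.08, SE, limma adjusted p = 2.8e-08) and 2.38-fold (log2 1.25 ± 0.08, limma adjusted p = 1.3e-09). *LAMP1*, a main glycoprotein of the lysosomal membrane, rose by 0.58 and 0.62 on the log2 scale, *CD63*, a tetraspanin of late endosomes, by 0.55 and 0.38, and *SCARB2*, which carries glucocerebrosidase to lysosomes, by 0.29 and 0.52. *LAMP2*, which serves chaperone-mediated autophagy, rose by 0.31 at 24 hours, and its 48-hour value of 0.08 (limma adjusted p = 0.19) did not pass.

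*NPC1* (chr18:23506184-23586506), which moves cholesterol out of lysosomes, went the other way. It read 2504, 2385 and 2316 in DMSO and 1754, 1679 and 1752 with AZD5153 at 24 hours, and 3050, 2940 and 2920 against 2001, 1785 and 1754 at 48 hours. It fell without overlap, with log2 fold changes of -0.47 ± 0.06 (SE, limma adjusted p = 2.3e-06) and -0.69 ± 0.06 (limma adjusted p = 3e-08). *CLN3* (chr16:28474111-28495575), a membrane protein lost in juvenile Batten disease, had 0 to 25 reads per library, and 25.3% of its exon bases are shared with ENSG00000261832 on the same strand. Its normalized counts were 13.5, 11.4 and 13.4 in DMSO and 4.02, 6.14 and 0 with AZD5153 at 24 hours, and 20.7, 22.2 and 9.72 against 0, 6.52 and 5.99 at 48 hours. The treated libraries lay below at both times. With no minimum mean its limma adjusted p was 0.064 at 24 hours, which did not pass, and 0.044 at 48 hours, which passed as lower.

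Of the 7 proteases, 3 rose (42.9%) and 2 fell (28.6%) at 24 hours, and 3 rose and 3 fell (42.9% each) at 48 hours. With so few genes these shares are near those of all genes, 33.9% and 34.6% at 24 hours and 33.1% and 33.9% at 48 hours. *CTSA* (chr20:45890144-45898949), a carboxypeptidase that also protects NEU1 and GLB1 in a complex, read 1291, 1377 and 1362 in DMSO and 2246, 2118 and 2199 with AZD5153 at 24 hours. By 48 hours it stood at 1821, 1872 and 2027 in DMSO, against 2965, 2915 and 3011 with AZD5153. It rose 1.63-fold (log2 0.70 ± 0.05, SE, limma adjusted p = 1.1e-08) and 1.56-fold (log2 0.64 ± 0.05, limma adjusted p = 3.7e-08) without overlap. *CTSB*, an abundant cysteine protease, rose by 0.35 and 0.42 on the log2 scale. *CTSL* and *CTSZ*, of the same enzyme family, fell, with -0.41 and -0.51 for *CTSL* and -0.55 and -0.94 for *CTSZ*. *TPP1*, a tripeptidyl peptidase, gave 0.04 (limma adjusted p = 0.64) and rose by 0.26 (limma adjusted p = 0.0076) at 48 hours, a call that equal totals did not keep (limma adjusted p = 0.35). Without replicate 1 of DMSO its 24-hour value was 0.14 (limma adjusted p = 0.039).

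*CTSF* (chr11:66563464-66568879), a cysteine protease of low level, changed at 48 hours alone by the threshold. It read 84.5, 104 and 147 in DMSO and 110, 85.0 and 90.6 with AZD5153 at 24 hours, where the groups overlapped (log2 -0.20 ± 0.18, SE, limma adjusted p = 0.34, and -0.38 without replicate 1 of DMSO). At 48 hours it read 247, 207 and 206 in DMSO and 84.8, 84.7 and 79.6 in AZD5153. The treated libraries stayed near their 24-hour level while those of the vehicle lay higher, and the log2 fold change was -1.39 ± 0.18 (SE, limma adjusted p = 5.6e-06). *CTSD*, the main aspartic protease, rested on the library that stood apart. It read 1590, 3150 and 3900 in DMSO and 4888, 4827 and 4149 with AZD5153 at 24 hours. Its log2 fold change there was 0.77 (limma adjusted p = 0.0036), and 0.39 (limma adjusted p = 1e-05) when replicate 1 of DMSO was left out. At 48 hours it read 3851, 3922 and 3936 against 4760, 4959 and 4672, which do not overlap. With all libraries the 48-hour value of 0.30 had a limma adjusted p of 0.22, and without that replicate 9e-05. Of the exon bases of *CTSD*, 22.9% are shared with ENSG00000250644 on the same strand, which had a mean of 132 normalized counts, and 23.4% with *PRADX* on the other strand. *CTSZ* shares 31.7% with *NELFCD* on the other strand, which was listed at 0.

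Among the 7 glycosidases 4 rose at each time, 0 fell at 24 hours and 2 fell at 48 hours (28.6%). Of all genes 33.9% and 33.1% rose and 34.6% and 33.9% fell at the 2 times, so the falls at 48 hours are near that share. *NEU1* (chr6:31857659-31862905), the lysosomal sialidase, had the highest mean effect outside the V-ATPase. It read 470, 456 and 514 in DMSO and 1410, 1387 and 1368 with AZD5153 at 24 hours, and 639, 695 and 638 against 1619, 1545 and 1800 at 48 hours. The treated libraries lay far above at both times, at 2.89-fold (log2 1.53 ± 0.07, SE, limma adjusted p = 3.1e-11) and 2.51-fold (log2 1.33 ± 0.07, limma adjusted p = 1.7e-10). *GLA*, which removes terminal galactose from glycolipids, rose by 0.66 and 1.01, *GAA*, which breaks down glycogen, by 0.77 and 0.48, and *GLB1*, the acid beta-galactosidase, by 0.55 and 0.19. Without replicate 1 of DMSO the 24-hour value of *GAA* was 0.58, and under equal totals the 48-hour value of *GLB1* was 0.02 (limma adjusted p = 0.75).

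*HEXA* (chr15:72340924-72376420), the alpha subunit of beta-hexosaminidase, read 346, 261 and 220 in DMSO and 201, 250 and 222 with AZD5153 at 24 hours, where the groups overlapped (log2 -0.28 ± 0.15, SE, limma adjusted p = 0.12, and -0.10 without replicate 1 of DMSO). At 48 hours it read 310, 384 and 298 against 171, 191 and 168 and fell, with a log2 fold change of -0.89 ± 0.15 (limma adjusted p = 8.5e-05). *NAGLU*, which acts on heparan sulfate, gave -0.07 (limma adjusted p = 0.71) at 24 hours and -0.43 (limma adjusted p = 0.027) at 48 hours. Its lowest vehicle library at 24 hours was replicate 1, with 543 against 937 and 999, and without it the 24-hour value was -0.35 (limma adjusted p = 0.0003). *GUSB*, the beta-glucuronidase, gave 0.01 (limma adjusted p = 0.88) and -0.17 (limma adjusted p = 0.065, and 0.036 without replicate 1 of the 24-hour vehicle). It has near copies, and its pseudogene *GUSBP1* had a mean of 271 normalized counts beside 834 for *GUSB*. How reads that match both were counted or dropped is not given.

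Of the 5 genes of lipid handling, 3 rose at each time, 1 fell at 24 hours and 2 fell at 48 hours (40%), the last near the 33.9% of all genes that fell at that time. Rises were called in 33.9% and 33.1% of all genes and falls at 24 hours in 34.6%. *PSAP* (chr10:71816298-71851251), the precursor of the saposins that present lipids to hydrolases, had the highest level of all members, with 10033 normalized counts per kilobase of exon over all libraries. It read 14471, 16155 and 16149 normalized counts in DMSO and 29933, 30342 and 29474 with AZD5153 at 24 hours, and 28943, 28893 and 29800 against 50657, 49686 and 50530 at 48 hours. Treatment and culture time both went with more of it, and vehicle cells at 48 hours overlapped treated cells at 24 hours. The log2 fold change was 0.94 ± 0.04 (SE, limma adjusted p = 2.9e-11) at 24 hours and 0.78 ± 0.04 (limma adjusted p = 2.5e-10) at 48 hours. *ASAH1*, the acid ceramidase, rose by 0.93 and 0.69 on the log2 scale, and *LIPA*, the acid lipase for cholesteryl esters, by 0.81 and 0.66. Under quantile normalization the median of the 5 genes at 48 hours was 0.11 in place of 0.66.

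*PPT1* (chr1:40072710-40097260), which removes palmitate from proteins, fell at both times. It read 3155, 3173 and 3037 in DMSO and 1826, 1907 and 2088 with AZD5153 at 24 hours, and 2733, 2754 and 2916 against 1440, 1341 and 1404 at 48 hours. The groups lay well apart, with log2 fold changes of -0.69 ± 0.06 (SE, limma adjusted p = 3e-08) and -1.01 ± 0.06 (limma adjusted p = 3.1e-10). *NPC2*, the soluble partner of NPC1, gave 0.03 (limma adjusted p = 0.78) and -0.23 (limma adjusted p = 0.031), and the 48-hour call was lost under quantile normalization (limma adjusted p = 0.38).

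**Figure D3:**
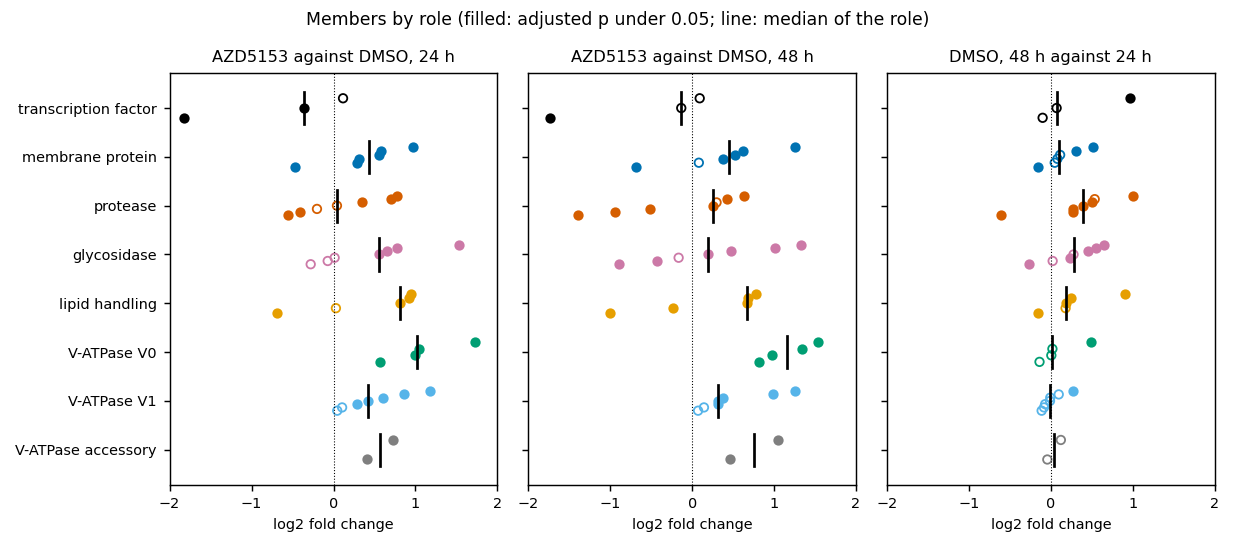
Each tested member as a point by role (y axis), at its log2 fold change (x axis) for AZD5153 against DMSO at 24 hours, at 48 hours and for DMSO at 48 against 24 hours. Filled points passed the limma threshold and black lines mark the median of each role. V-ATPase points lie right of 0 in both treatment panels (under equal totals *ATP6V1C1* and *ATP6V1E1* turned slightly negative) and around 0 in the panel of culture time, where most enzymes lie to the right.

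Culture time alone was read from the vehicle libraries. From 24 to 48 hours in DMSO, 17 of 41 members rose and 4 fell by limma, beside 16.4% and 19.3% of all genes. Leaving out single libraries gave 13 to 19 higher and 2 to 4 lower, and fewer fell under equal totals, quantile normalization and edgeR. Of the 19 enzymes and lipid genes 12 rose and 3 fell. Of the 13 V-ATPase genes 2 rose (*ATP6V0A1* and *ATP6V1B2*) and 0 fell, and 15.4% is near the 16.4% of all genes that rose. The difference between these roles was not tested. A rise of at least 1 on the log2 scale was reached by 1 member, *CTSF* (beside 3.11% of all genes), and a fall of that size by 0 (beside 0.609%). Without replicate 1 of DMSO at 24 hours no member (0) rose that much, beside 2.54% of all genes, and the value of *CTSF* was 0.82 (limma adjusted p = 0.00071). With all libraries *CTSF* had a log2 difference of 1.00 ± 0.18 (SE, limma adjusted p = 0.00057), and *PSAP* gained 0.91 ± 0.04 (limma adjusted p = 3.7e-09). *TFEB* rose by 0.97 ± 0.34 (SE, limma adjusted p = 0.034), a call that was lost without that replicate (0.66, limma adjusted p = 0.12). The values of *GAA* and *NAGLU* went from 0.65 to 0.46 and from 0.55 to 0.28 without it and still passed, and *HEXA* (0.45 in place of 0.28), *LAMP2* (0.16 in place of 0.11) and *SCARB2* (0.15 in place of 0.08) passed without it but not with it. Those that fell were *CTSL* (-0.61), *GLA* (-0.27), *LAMP1* (-0.16) and *PPT1* (-0.16). This comparison shares its libraries with both treatment effects. At 24 hours all members together took 0.488% ± 0.013 of the normalized counts with vehicle and 0.652% ± 0.0073 with AZD5153 (SD, n = 3), and 0.630% ± 0.0035 and 0.803% ± 0.0065 at 48 hours. Of this the lipid genes, with the abundant *PSAP*, took 0.111% and 0.174% at 24 hours and 0.189% and 0.269% at 48 hours.

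The treatment effect itself differed between the times for 13 members by the limma test of the difference. It was more positive at 48 hours in 5 (beside 14.4% of all genes) and more negative in 8 (beside 10.1%). A difference of at least 1 was positive in 0 members (beside 1.26% of all genes) and negative in 1 (beside 3.58%). Without replicate 1 of DMSO at 24 hours *MCOLN1* (0.31), *NPC1* (-0.24) and *HEXA* (-0.79) passed too, and *CTSF* was at -1.01. Among the members that passed with all libraries, the largest differences were those of *CTSF* at -1.19 ± 0.26 (SE, limma adjusted p = 0.0038), *ATP6V0D1* at 0.50 ± 0.10 (limma adjusted p = 0.0027) and *ATP6V0A1* at -0.40 ± 0.07 (limma adjusted p = 0.0011). *HEXA* at -0.61 (limma adjusted p = 0.0502) and *CTSD* at -0.48 (limma adjusted p = 0.26) did not pass. Without replicate 1 of DMSO at 24 hours the value of *CTSD* was -0.098. Both subunits of V0 rose at each time, yet the gap between treated and vehicle libraries widened for *ATP6V0D1* and narrowed for *ATP6V0A1*, whose vehicle level was higher at 48 hours.

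**Figure D4:**
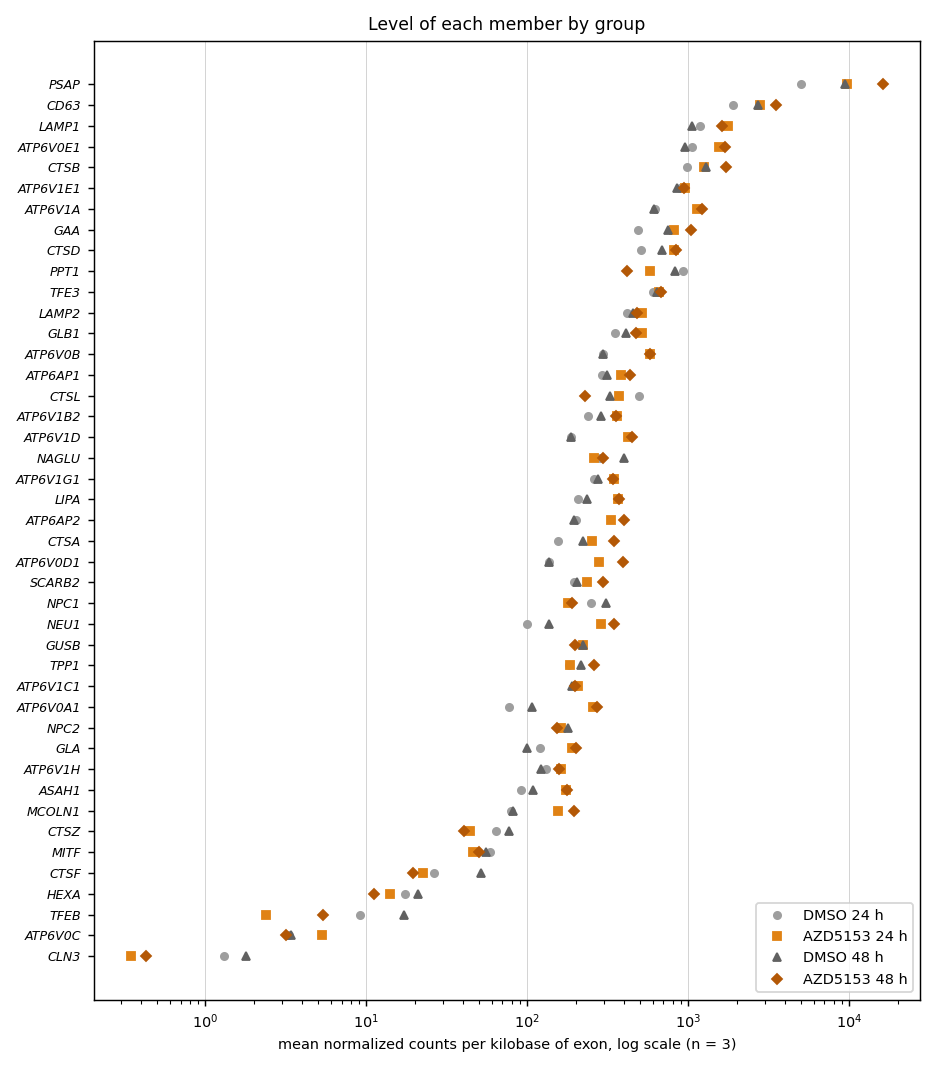
Mean normalized counts per kilobase of exon (x axis, log scale, n = 3) of all 43 members in each group, ordered by their mean over all libraries. *PSAP* heads the order, and *TFEB*, *ATP6V0C* and *CLN3* lie at its end.

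A wider list of 112 other lysosomal genes, written by hand, gave 100 tested genes, of which 60 rose and 17 fell at 24 hours and 60 rose and 23 fell at 48 hours. Of all genes tested 33.9% rose and 34.6% fell at 24 hours and 33.1% and 33.9% at 48 hours, which is the background for this list and for each group of it below. Among other V-ATPase subunits and assembly factors 8 of 14 rose and 2 fell at 24 hours, and 10 rose and 1 fell at 48 hours. *ROGDI*, which encodes a subunit of the RAVE complex that helps V1 and V0 join, had the highest mean effect, with 16.9, 17.1 and 18.7 normalized counts in DMSO and 118, 134 and 91.8 with AZD5153 at 24 hours. Vehicle libraries of 48 hours gave 29.7, 21.3 and 22.7 for *ROGDI* and treated ones 99.4, 126 and 125, so that its treated libraries lay above at both times (log2 2.62 and 2.21, limma adjusted p = 2.4e-08 and 1.8e-07). *OXR1*, of the TLDc proteins that bind the pump, fell by 0.38 and 0.58 on the log2 scale.

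Of 39 other hydrolases and activators, 27 rose and 7 fell at 24 hours and 27 rose and 8 fell at 48 hours. *LGMN*, the asparaginyl endopeptidase legumain, rose most, from 220, 244 and 254 in DMSO to 1181, 1243 and 1235 with AZD5153 at 24 hours, and from 200, 201 and 230 to 1189, 1176 and 1142 at 48 hours. Its groups were far apart, at 5.09-fold and 5.55-fold (limma adjusted p = 1e-12 and 5.3e-13). *CTSS*, a cysteine protease typical of antigen-presenting cells, fell most, from 292, 255 and 257 to 16.1, 16.4 and 20.8 at 24 hours and from 303, 308 and 341 to 3.65, 3.26 and 4.28 at 48 hours. In its case the log2 fold changes were -3.85 and -6.08 (limma adjusted p = 6.4e-11 and 3.4e-13), and the treated values at 48 hours are of few reads.

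Among 25 other membrane proteins 13 rose and 5 fell at 24 hours, and 12 rose and 7 fell at 48 hours. *TMEM175*, a potassium and proton channel of lysosomes, rose by 1.23 and 1.11 on the log2 scale. *LAPTM5*, a lysosomal protein of blood cells, fell from 2355, 2253 and 2002 to 925, 891 and 882 at 24 hours and from 1710, 1685 and 1790 to 385, 321 and 376 at 48 hours (limma adjusted p = 5.9e-10 and 8.3e-13). The summed normalized counts of 12 myeloid markers moved with *CTSS* and *LAPTM5*, at 233 to 261 in DMSO and 53.9 to 60.3 with AZD5153 at 24 hours, and at 246 to 281 and 38.3 to 63.3 at 48 hours. Of these markers 4 of 12 had a mean of at least 10, most of the sum in DMSO was *CSF1R*, and the defining *AIF1*, *TYROBP*, *C1QA* and *C1QB* were at 0 in every library. *CSF1R*, *CD163* and *FCER1G* fell at both times, whereas *CD14* had a mean of 12.0 in DMSO and 16.9 with AZD5153 at 24 hours (limma adjusted p = 0.32) and of 12.9 and 12.8 at 48 hours (limma adjusted p = 0.77). The sum of 5 endothelial markers, of which *CDH5* was at 0 in every library, was 333 to 385 in DMSO and 69.8 to 95.2 with AZD5153 at 24 hours, and 607 to 645 and 59.0 to 75.7 at 48 hours. Most of that sum in DMSO was *PECAM1*, and *VWF* also fell, whereas *KDR* rose at 24 hours (mean of 7.48 in DMSO and 17.8 with AZD5153, limma adjusted p = 0.041) and *CLDN5* had at most 2.68 normalized counts. Among the glial and glioma markers *NES* (log2 -1.43 and -1.87) and *SOX2* (-0.60 and -0.30) fell at both times. *CD44* rose at both (0.17 and 0.53). *SOX9* fell at 24 hours (-1.35) and did not pass at 48 hours (0.16, limma adjusted p = 0.078). *VIM* was called lower at 24 hours alone (-0.28), with overlapping libraries and DMSO replicates at 28352, 20900 and 19355, and *GFAP* passed at neither time. All libraries here are of the cell line SF8628. In bulk RNA fewer cells that express a gene and less of its RNA per cell cannot be told apart. What part these markers have in the results was not tested.

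For sorting of lysosomal enzymes 7 of 12 genes rose and 2 fell at 24 hours, and 7 rose and 3 fell at 48 hours. *IGF2R*, the large mannose 6-phosphate receptor, rose by 0.96 and 0.75 on the log2 scale (limma adjusted p = 3.1e-12 and 4.8e-11). *NAGPA*, which uncovers the mannose 6-phosphate signal, fell by 1.21 and 1.31 (limma adjusted p = 2.8e-07 and 1.1e-07). Among 10 genes that control the TFE factors 5 rose and 1 fell at 24 hours, and 4 rose and 4 fell at 48 hours, where 40% each way is close to the shares of all genes. *PPP3CB*, a catalytic subunit of calcineurin, which dephosphorylates TFEB, rose by 1.05 and 1.41. *RRAGD*, a Rag GTPase that brings TFE factors to the lysosome, fell by 0.41 at both times. In the wider list 2 of 100 genes passed in opposite directions at the times, near the 1.62% of all genes, and are named after their values were seen: *VMA21*, an assembly factor of V0, with -0.45 and 0.21, and *FLCN*, which activates RagC and RagD, with 0.22 and -0.28. The letters CACGTG stood in 17 of 86 promoters matched for this list (19.8%), and the longer palindrome in 6 (6.98%).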

How the data were processed

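RNA-Seq libraries of SF8628 cells were grouped by the treatment, time and replicate in their labels. The authors used STAR to align their paired-end reads (hg38), HTSeq-count for the counts and DESeq2 (versions, annotation and strand setting are not given in the sources used here). The deposited values are a signal, gene counts divided by 1 size factor per library, and whole reads could be recovered from 100% of them (tolerance 0.02). The authors' own fold changes and p-values in the same table were not used, and the CUT&RUN samples were not analysed here.

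Genes with a mean of at least 10 were tested on log2(normalized count + 1) with limma 3.58.1 (lmFit, eBayes with trend) in R 4.3.3, all 4 groups in 1 fit (8 residual degrees of freedom). P-values were adjusted by Benjamini-Hochberg over all genes tested, with a threshold of 0.05. The design had foreseen this for normalized values. The edgeR 4.0.16 quasi-likelihood test and DESeq2 1.42.0 were run on recovered reads as alternatives, beside other pseudocounts, minimum means, scalings (among them 7 stably expressed genes named in the study's methods), fits and each library left out. The limma, edgeR and DESeq2 steps were also run on simulated counts. These had the same spread for all genes and no library that stood apart, unlike the data here, so that run does not cover such a library. Positions and exon lengths are those of GENCODE 44, and promoters those of RefSeq GRCh38.p14.

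The members and the other gene lists were chosen with earlier results of these data known, so no test was made over a list. Genes given by library are the transcription factors, the members with the highest and lowest mean effect of each role, the 3 with the largest difference between times among those that passed its test, those under the minimum mean, and the extremes of each other list that passed at both times. *CTSD* was added after its values were seen. Other members are given by their fold changes.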

Additional observations from a re-analysis of the deposited data

Results flagged for a closer look

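The effect of AZD5153 differed between 48 and 24 hours for 13 members by limma's test of the difference (log2, effect at 48 minus effect at 24 hours, adjusted p under the threshold over all genes). It was more positive at 48 hours in 5 of 41 (12.2%), near the 14.4% of all genes, and more negative in 8 (19.5%), beside 10.1% of all genes. Leaving out single libraries gave 3 to 6 positive and 5 to 10 negative, and some scalings gave fewer of either sign, as listed below. The more negative ones were *CTSF* (-1.19), *ATP6V0A1* (-0.40), *CTSZ* (-0.39), *GLB1* (-0.36), *PPT1* (-0.32), *ATP6V1B2* (-0.29), *ASAH1* (-0.24) and *LAMP2* (-0.23). The more positive ones were *ATP6V0D1* (0.50), *GLA* (0.35), *ATP6AP2* (0.31), *ATP6V0E1* (0.24) and *SCARB2* (0.23). For *CTSZ* and *PPT1* a fall deepened, for *CTSF* it appeared at 48 hours, and for the other 10 a rise grew or shrank, with *LAMP2* no longer past the threshold at 48 hours. The calls of *LAMP2*, *SCARB2*, *ATP6V0E1*, *CTSZ* and *ASAH1* were each lost when single libraries were left out.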

How the results depend on the processing

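Direction and call of the counts of members at 24 and 48 hours were kept within 1.5 times under each scaling, pseudocount, minimum mean, fit and count model tried. With a log2 fold change of at least 1 asked for, 4 members rose and 1 fell at 24 hours, 7 rose and 3 fell at 48 hours, the difference between times left 0 positive and 1 negative, and culture time 1 higher and 0 lower. The difference between times was positive for 3 members with no minimum mean, under equal totals, under quantile normalization and with edgeR, and negative for 3 with the 7 stably expressed genes. Culture time lowered 2 members with no minimum mean, under equal totals, quantile normalization, the 7 stably expressed genes, a fit of only the groups compared and edgeR. The median of the members at 24 hours was 0.49 with a minimum mean of 100, 0.30 under equal totals and 0.37 with the 7 genes, and at 48 hours 0.32 with no minimum mean, 0.21 under equal totals and 0.16 under quantile normalization. Equal totals moved the median of all genes to -0.12 and -0.17 and the higher share of all calls to 40.7% (49.5% as reported) and 37.3% (49.4%), and the members' median stayed 0.42 and 0.38 above that of all genes. Under quantile normalization it was 0.38 and 0.08 above. The cause of these shifts was not tested.

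Leaving out single libraries gave 25 to 28 higher and 6 to 7 lower at 24 hours, 24 to 27 and 7 to 11 at 48 hours, 3 to 6 positive and 5 to 10 negative differences between times, 13 to 19 higher and 2 to 4 lower with culture time, and medians of 0.37 to 0.51 and 0.31 to 0.40. Replicate numbers did not pair the libraries: over 18 pairs of groups' same-numbered libraries the correlation of deviations ran from -0.151 to 0.0363, and 4 of 12 libraries were closest to their own number. With the replicate number as a block the counts were 26 and 6, and 25 and 9, and the time difference of *LAMP2* was lost (limma adjusted p = 0.053).

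Signs turned only for values that passed in neither setting. Under equal totals these were *TFE3* (-0.0068 and -0.080), *LAMP2* at 48 hours (-0.091), *TPP1* (-0.081), *GUSB* (-0.11) and *NPC2* (-0.094) at 24 hours, *ATP6V1C1* (-0.078 and -0.10) and *ATP6V1E1* (-0.018 and -0.028). Under quantile normalization they were *TFE3* (-0.034), *MITF* (0.022) and *LAMP2* (-0.085) at 48 hours, and with the 7 genes *TPP1* (-0.0046), *GUSB* (-0.033), *NPC2* (-0.017) and *ATP6V1C1* (-0.0011) at 24 hours. With single libraries left out, the 24-hour values ran from -0.38 to 0.013 for *CTSF*, -0.0087 to 0.14 for *TPP1*, -0.046 to 0.079 for *GUSB*, -0.35 to 0.091 for *NAGLU* and -0.037 to 0.12 for *ATP6V1C1*. The median of the proteases at 24 hours was -0.08 under equal totals and -0.0046 with the 7 genes. The longer palindrome stood in the promoters of 3 members, against 11 for CACGTG. *CLN3* and *ATP6V0C* had few reads and share exon bases with other genes, and the part of either in their values was not tested.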
